A study of Mus musculus with 6 samples.

Results

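The folate one-carbon genes are the genes through which a cell takes up folate and passes single carbon units between amino acids, nucleotides and methyl donors. Expression of 9 of them was followed in heads of E8.5 mouse embryos lacking the histone demethylase Jarid1b: Folr1, Slc19a1, Slc46a1, Mthfd1, Mthfd1l, Mthfd2, Shmt2, Gldc and Amt. They were picked for their place in the pathway, but with earlier results of these data known. Each is the row of the array that the platform annotation pairs with exactly that gene symbol. All 9 were measured, among 19938 genes in all, and they occupy 10 of 21789 probe sets because Slc19a1 has 2. Where a gene has several probe sets, the brightest stands for it.

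The series holds 3 Jarid1b knockout and 3 Jarid1b heterozygote samples, each a pool of 4 heads at E8.5 on a C57BL/6 background. Knockouts carry no intact Jarid1b allele, and heterozygotes, which carry a single intact allele, were the controls, so that no wild-type pool is part of the comparison. The deletion was constitutive, made by crossing mice with a loxP-flanked Jarid1b exon to Cmv-cre mice and intercrossing their heterozygous offspring, and every cell of a knockout head is therefore expected to carry it. Affymetrix mouse Gene ST arrays were used, and the deposited RMA intensities were turned to log2 values, which is the scale of every level given here unless a linear intensity is named. Levels of different genes are not compared, because each probe set has its own brightness.

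Folate enters cells through receptors and carriers. In the mitochondria serine and glycine are split to load a carbon unit onto tetrahydrofolate, the unit leaves as formate, and cytosolic enzymes reload it for the synthesis of purines, thymidylate and methionine. The pathway is best known in the early head for closure of the neural tube: in mice, loss of Folr1, Mthfd1l, Gldc or Amt leads to neural tube defects. E8.5 is the stage at which the cranial neural folds rise and meet.

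Jarid1b, listed under its current symbol Kdm5b, had log2 intensities of 7.63, 7.47 and 7.71 in knockout replicates 1, 2 and 3, against 9.17, 9.12 and 9.16 in heterozygote replicates 1, 2 and 3. It fell in every knockout pool, with a log2 fold change of -1.55 (knockout minus heterozygote, limma adjusted p = 6.29e-04), and the position of its probes in the gene, inside or outside the deleted exon, was not checked. Across all probe sets it was the only call at an adjusted p under 0.05, which is 0.00459% of those tested. The share with an unadjusted p under 0.05 was 10.6%, made up of 5.97% higher and 4.66% lower in knockouts. These shares depended on brightness. Of the brightest 7263 probe sets, called bright here and holding 8 of the 9 folate genes, 0.716% were higher and 6.71% lower, and their median log2 fold change was -0.04. After quantile normalization or cyclic loess, which level the arrays over the whole range of intensities, that median was 0.0010 and 0.00046. All 12 markers of head neural ectoderm were measured, with sums of linear intensity from 3695 to 3897 in knockout pools and from 3839 to 4089 in heterozygote pools and no single value under 87.9. Of these 12, 1 was higher and 3 lower in knockouts at an unadjusted p under 0.05, from -0.39 for the forebrain factor Hesx1 to 0.20 for Sox1. In 4, or 33.3%, every knockout pool lay below every heterozygote pool, where all probe sets gave 9.03% and the bright ones 16.8%. The reverse was seen in none of them. Heads of both genotypes also held signal of other tissues: summed over 14 markers of yolk sac visceral endoderm, linear intensity ranged from 4065 to 8998 in knockout pools and from 7711 to 9086 in heterozygote pools. Xist lay at 3.74 in knockout replicate 2 and 4.22 in heterozygote replicate 2, against 8.82 and 8.91 in knockout replicates 1 and 3 and 10.17 and 10.08 in heterozygote replicates 1 and 3. The Y-linked gene Uty lay at 7.20, 7.48 and 7.17 in knockout replicates 1, 2 and 3, against 5.77, 7.60 and 5.77 in heterozygote replicates 1, 2 and 3. Y-linked signal thus differed between the genotypes among the pools rich in Xist, and its part in the results was not tested.

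No folate gene passed an adjusted p of 0.05 in limma over all probe sets, and the smallest adjusted p among them was 0.356. At an unadjusted p under 0.05, 1 was lower and 0 were higher. That gene was Shmt2, and 1 of 9 is 11.1%, where all probe sets gave 4.66% and the bright ones 6.71%. In 2 of the 9, Shmt2 and Mthfd1, every knockout pool lay below every heterozygote pool, where all probe sets gave 9.03% and the bright ones 16.8%. The opposite, every knockout pool above every heterozygote pool, was seen in 0 of the 9, where all probe sets gave 8.03% and the bright ones 3.06%. Of the 9 log2 fold changes, 6 were below 0, which is 66.7%, where all probe sets gave 50.3% and the bright ones 70.2%. The median of the 9 was -0.03, close to that of the bright probe sets, and it was 0.01 after both quantile normalization and cyclic loess. As a group the folate genes therefore sat near the background of probe sets as bright as they are, and the account below turns on single genes. For any 1 gene, the smallest p that exact permutation of 3 and 3 pools allows is 0.1.

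**Figure D1:**
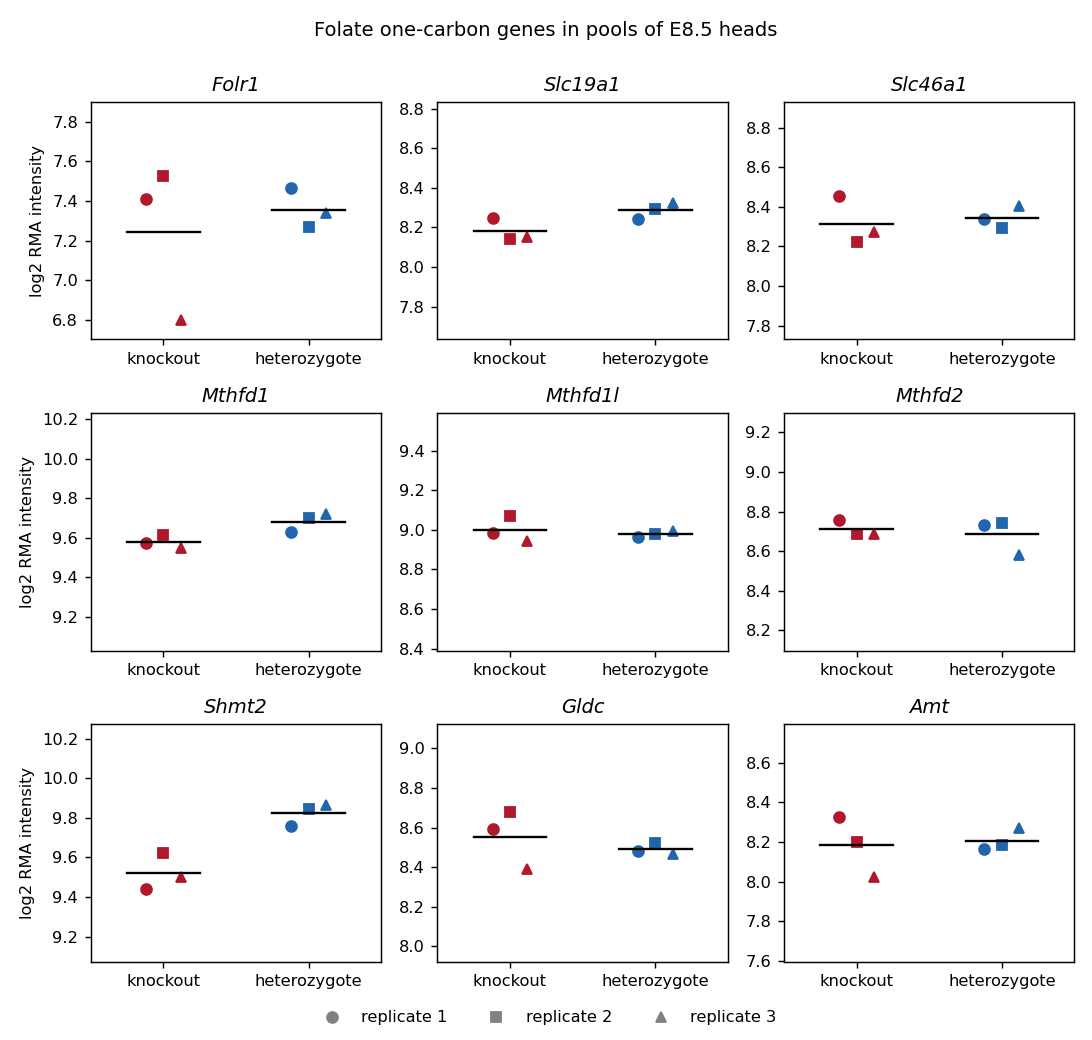
Log2 RMA intensity (vertical axis) of the 9 folate one-carbon genes in each pool of 4 E8.5 heads, knockout pools in red and heterozygote pools in blue, with symbols for the replicates, a black line at each mean of 3 and the same height of scale in every panel. Shmt2 lies between 9.44 and 9.62 in knockouts and between 9.76 and 9.87 in heterozygotes, and Folr1 drops to 6.80 in knockout replicate 3.

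Shmt2, the mitochondrial serine hydroxymethyltransferase that splits serine into glycine and a folate-bound carbon unit, showed the largest difference of the 9. Its log2 intensity was 9.44, 9.62 and 9.50 in knockout replicates 1, 2 and 3, against 9.76, 9.85 and 9.87 in heterozygote replicates 1, 2 and 3. The highest knockout pool thus stayed below the lowest heterozygote pool. On the linear scale this is a mean intensity of 736 in knockouts and 907 in heterozygotes. Means were 9.52 ± 0.09 in knockouts and 9.82 ± 0.06 in heterozygotes (SD, n = 3 pools each). Knockout minus heterozygote, this is a log2 fold change of -0.30 (SE 0.07), which is 1.23-fold lower in knockouts with a 95% confidence interval from 1.11 to 1.37. Its unadjusted p in limma was 0.0019 and its adjusted p 0.356, so it did not pass the test over all probe sets.

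Among all 21789 probe sets, Shmt2 itself included, 116 had an unadjusted p as small as that of Shmt2 or smaller, and 119 had a log2 fold change as low or lower. Of the bright probe sets, 27 of 7263 were as low or lower. The value held its direction in each of 15 alternative processings, between -0.35 and -0.26. Much of this was fixed beforehand. Leaving out a pool could not turn the direction, because the groups did not overlap. The choice of rows, averaging of probe sets, the trend and robust variance model and the replicate block left the value itself at -0.30. Its unadjusted p in limma stayed under 0.05 in all 15, while its adjusted p ranged from 0.180 to 0.617 and passed in none. Leaving out knockout replicate 2, the highest of the knockout pools, gave -0.35, and leaving out knockout replicate 1, the lowest, gave -0.26. After quantile normalization and cyclic loess, which remove the lower lean of bright probe sets, it was -0.26 in both.

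**Figure D2:**
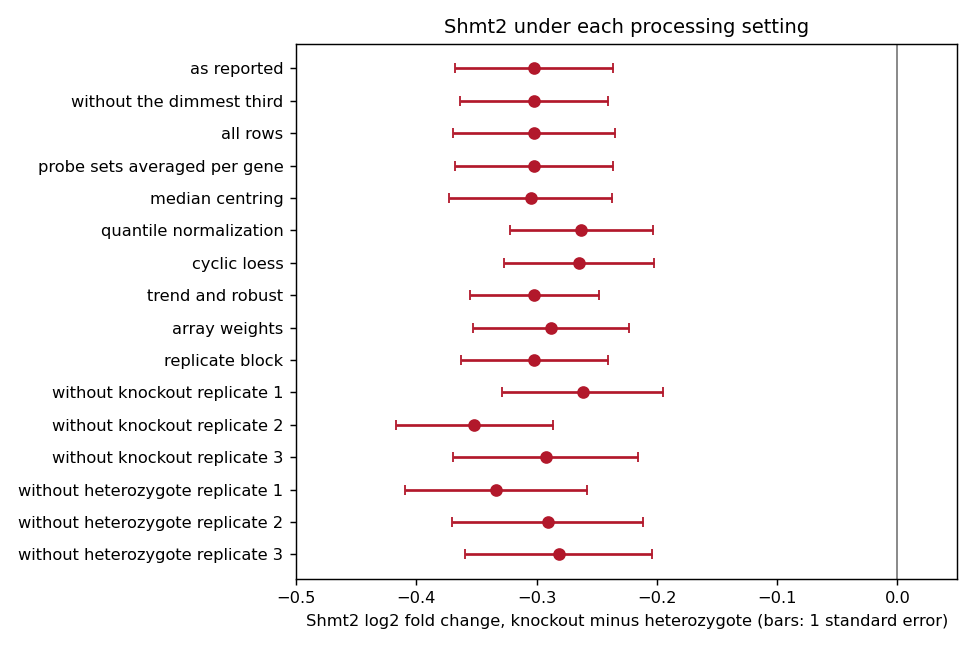
Log2 fold change of Shmt2, knockout minus heterozygote (horizontal axis), as reported and under 15 alternative processings, with bars of 1 standard error. All points lie between -0.35 and -0.26 and no bar reaches 0.

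Enzymes next to Shmt2 lay nearer to 0. For Shmt1, its cytosolic counterpart, the log2 fold change was 0.01 (SE 0.05). As a description, setting Shmt2 against a neighbor within each pool, as deviations from each gene's own mean over the 6 pools, the difference Shmt2 minus Shmt1 was -0.15 ± 0.08 in knockouts and 0.15 ± 0.05 in heterozygotes (SD, n = 3 each). For Shmt2 minus Mthfd2 it was -0.16 ± 0.13 in knockouts and 0.16 ± 0.13 in heterozygotes, and for Shmt2 minus Mthfd1l it was -0.16 ± 0.06 in knockouts and 0.16 ± 0.04 in heterozygotes. The pools of the 2 genotypes did not overlap in any of the 3 differences. Since Shmt2 was taken up here for its own difference and these neighbors lie near 0, the 3 differences largely restate that of Shmt2 and are given without a test.

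Markers of the surface ectoderm, the epithelium that covers the neural folds, were on the same side as Shmt2 in sum. Of 10 measured, 8 had a log2 fold change below 0, or 80%, where all probe sets gave 50.3% and the bright ones 70.2%. At an unadjusted p under 0.05, 3 were lower, or 30%, where all probe sets gave 4.66% and the bright ones 6.71%. After median centring 4 were lower. After quantile normalization 2 were, and after cyclic loess also 2, each with 199 of the 7263 bright probe sets lower. Before any rescaling the 3 were the epithelial cadherin Cdh1, the lowest of the 10, Esrp1 and Krt18, at -0.22, -0.21 and -0.20. The 2 above 0 were Grhl3 at 0.05 and Perp at 0.06, and Trp63 was at -0.08 with overlapping pools. The markers thus did not move as 1. Their summed linear intensity was between 6447 and 7134 in knockout pools and between 7569 and 7765 in heterozygote pools, without overlap. It was lowest in knockout replicate 3, where the sum of visceral endoderm markers was also lowest. Such a sum weighs the brightest markers most, here the keratins Krt18 and Krt8. No marker was near 0, the lowest single value being 45.9. Other tissues also had lower markers. At an unadjusted p under 0.05, 3 of 12 were lower for head neural ectoderm and 3 of 12 for heart, or 25% each. After quantile normalization, and also after cyclic loess, 2 were lower for head neural ectoderm and 1 for heart. Of the heart markers 6 were below 0 and 6 above. In 1 of them, or 8.33%, every knockout pool lay below every heterozygote pool, where the bright probe sets gave 16.8%. The summed intensity of 9 markers of primitive blood was 563, 2042 and 736 in knockout replicates 1, 2 and 3. In heterozygote replicates 1, 2 and 3 it was 559, 474 and 559. These groups were barely apart, and the lowest single value was 17.5. In the 2 pools with little Xist, Shmt2 was at 9.62 in knockout replicate 2 and at 9.85 in heterozygote replicate 2. In pooled heads, fewer cells of a type and less RNA per cell cannot be told apart, and the part of any of these tissues in the Shmt2 difference was not tested.

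The region around the start of Shmt2 is shown beside those of Mthfd1, the other gene whose pools did not overlap, and of Mthfd2, the mitochondrial enzyme that acts next on the unit Shmt2 makes and whose pools overlapped. Each window runs from 250 bases before to 50 after the start, 5′ to 3′ on the gene's strand, in the RefSeq table of GRCm38.p6. Capitals mark matches to 6 motifs searched on both strands, chosen after the Shmt2 sequence was read. The center of the Nrf1 motif was searched as CGCATGCG and the first part of the ZNF143 motif as ACTACAATT. The GC box was searched as GGGCGG. The CCAAT box is spelled by its name. The E-box was searched as CACGTG. For the Atf4 element the letters were TGATGNAA, where N is any base. None of the matches in these windows overlap.
Shmt2, chr10:127522395-127522694, minus strand: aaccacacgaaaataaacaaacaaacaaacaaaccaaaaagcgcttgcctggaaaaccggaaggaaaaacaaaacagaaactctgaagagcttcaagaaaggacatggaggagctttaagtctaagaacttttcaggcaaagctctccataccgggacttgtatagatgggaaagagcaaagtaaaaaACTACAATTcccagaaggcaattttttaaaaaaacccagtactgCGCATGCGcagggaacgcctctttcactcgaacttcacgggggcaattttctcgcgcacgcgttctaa
Mthfd1, chr12:76254982-76255281, plus strand: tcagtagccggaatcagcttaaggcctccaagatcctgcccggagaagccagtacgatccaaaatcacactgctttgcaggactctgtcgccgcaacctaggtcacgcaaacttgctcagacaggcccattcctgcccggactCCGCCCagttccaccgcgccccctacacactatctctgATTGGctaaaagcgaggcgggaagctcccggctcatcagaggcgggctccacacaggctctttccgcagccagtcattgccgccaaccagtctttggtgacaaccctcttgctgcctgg
Mthfd2, chr6:83317555-83317854, minus strand: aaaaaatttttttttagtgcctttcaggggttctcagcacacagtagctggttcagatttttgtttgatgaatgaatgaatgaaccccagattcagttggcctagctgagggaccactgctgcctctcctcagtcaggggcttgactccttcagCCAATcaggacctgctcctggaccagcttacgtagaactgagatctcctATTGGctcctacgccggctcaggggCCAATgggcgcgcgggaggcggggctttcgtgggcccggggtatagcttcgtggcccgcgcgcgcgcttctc
The Shmt2 window holds the Nrf1 motif from -18 to -11 and the ZNF143 motif from -62 to -54, counted from the start. As the exact letters searched, the first of these occurs in 1.87% and the second in 0.393% of 32851 windows. Neither string of letters is in another window of the 9 genes. Sites of these factors that differ by some letters were not searched, so their absence from the other windows is not shown. Mthfd1 holds a GC box from -107 to -102 and a CCAAT box from -69 to -65, and Mthfd2 holds 3 CCAAT boxes, while 35.7% of all windows hold a GC box and 37.4% a CCAAT box. The E-box, found in 7.15% of all windows, and the Atf4 element, found in 3.97%, were in no window of the 9 genes. Of the 9 genes 8 are in the table, with 9 windows, and 8 of these windows have more CpG dinucleotides than the median window, which has 7, up to 21 for Slc19a1. A match is a description of the letters and says nothing of binding in these heads.

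Mthfd1, the cytosolic trifunctional enzyme that takes up formate and interconverts the folate-bound units, was lower in every knockout pool, but by little. Its log2 intensity was 9.57, 9.61 and 9.55 in knockout replicates 1, 2 and 3, against 9.63, 9.70 and 9.72 in heterozygote replicates 1, 2 and 3. The highest knockout pool and the lowest heterozygote pool were 9.61 and 9.63, so the groups are barely apart. Between the genotypes the log2 fold change was -0.10 (95% confidence interval -0.23 to 0.02), at an adjusted p in limma of 0.534. It was below 0 in all 15 alternatives, from -0.13 to -0.07, though leaving out a pool could not turn the sign of groups that do not overlap. Its unadjusted p in limma was under 0.05 only with the trend and robust variance model, at 0.039.

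The other mitochondrial enzymes lay close to 0. Mthfd2, the dehydrogenase and cyclohydrolase of embryonic and dividing cells, had 8.76, 8.69 and 8.69 in knockout replicates 1, 2 and 3, against 8.73, 8.74 and 8.58 in heterozygote replicates 1, 2 and 3. Heterozygote replicate 3 was the lowest of the 6 pools, and the groups overlapped. This gave a log2 fold change of 0.03 (95% confidence interval -0.12 to 0.17). Mthfd1l, which releases formate from the mitochondria, had 8.99, 9.07 and 8.95 in knockout replicates 1, 2 and 3, against 8.97, 8.98 and 8.99 in heterozygote replicates 1, 2 and 3. Its heterozygote pools agreed within an SD of 0.01 and lay inside the range of the knockout pools. Its log2 fold change was 0.02 with a 95% confidence interval from -0.11 to 0.15. These intervals bound the change of either enzyme but do not show that their levels were equal.

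**Figure D3:**
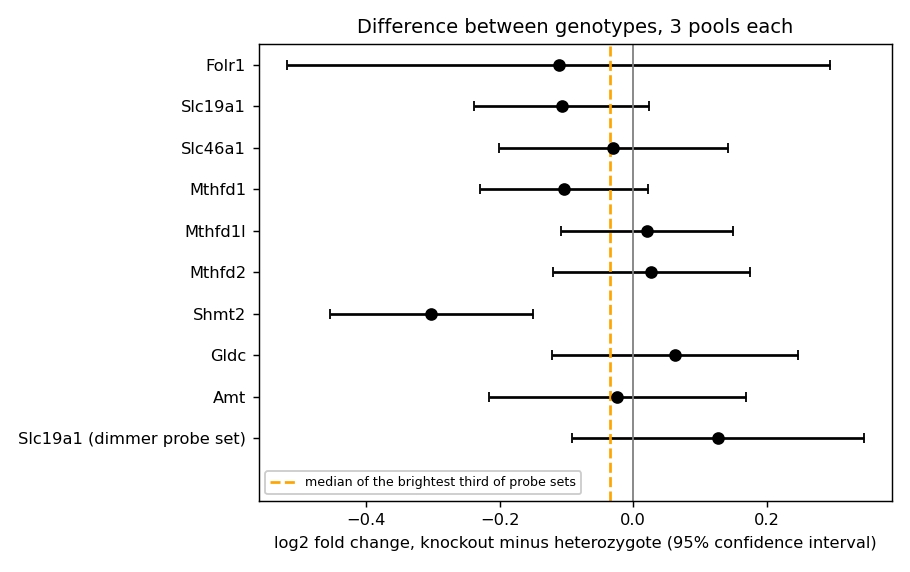
Log2 fold change, knockout minus heterozygote (horizontal axis), of the 9 genes and of the dimmer probe set of Slc19a1, with 95% confidence intervals from limma and a dashed orange line at -0.04, the median of the bright probe sets. The interval of Shmt2, from -0.45 to -0.15, is the only one of the 10 that does not hold 0, and that of Folr1, from -0.52 to 0.29, is the widest.

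Of the genes of folate uptake, Folr1 varied most. Folr1 is the membrane-anchored folate receptor that takes up folate by endocytosis. Its log2 intensity was 7.41, 7.53 and 6.80 in knockout replicates 1, 2 and 3, against 7.46, 7.27 and 7.34 in heterozygote replicates 1, 2 and 3. A single pool, knockout replicate 3, lay below all others, and the other 2 knockout pools lay among or above the heterozygote pools. The SD was 0.39 in knockouts and 0.10 in heterozygotes. Between the genotypes the log2 fold change was -0.11 (95% confidence interval -0.52 to 0.29), at an adjusted p in limma of 0.841, and without knockout replicate 3 it was 0.11 (adjusted p = 0.735).

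Visceral endoderm of the yolk sac is an extraembryonic epithelium rich in uptake receptors, and its markers were low in the same pool. Their median deviation from the mean over the 6 pools was -0.86 in knockout replicate 3, while in the other 5 pools it lay between -0.02 and 0.25. Summed over the 14 markers, linear intensity was 8960, 8998 and 4065 in knockout replicates 1, 2 and 3, against 9086, 7711 and 8787 in heterozygote replicates 1, 2 and 3. Of the 14, 13 had a log2 fold change below 0, or 92.9%, where all probe sets gave 50.3% and the bright ones 70.2%. Yet in knockout replicates 1 and 2 their median deviation was 0.19 and 0.24, within the range of the heterozygote pools. None had an unadjusted p under 0.05. The values ran from -0.64 for the apolipoprotein Apom to 0.0035 for the transcription factor Hnf4a. No marker had an intensity near 0, the lowest single value being 42.7. The 3 probe sets whose pattern over the 6 pools was most like that of Folr1, by the mean absolute difference of deviations, were Myo6 at 0.03, Gipc2 at 0.06 and Hnf4a at 0.06. Hnf4a is itself on the visceral endoderm list. Its deviation in knockout replicate 3 was -0.45, beside -0.50 for Folr1, a closeness that follows from how it was picked. The part of visceral endoderm in the Folr1 values was not tested.

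**Figure D4:**
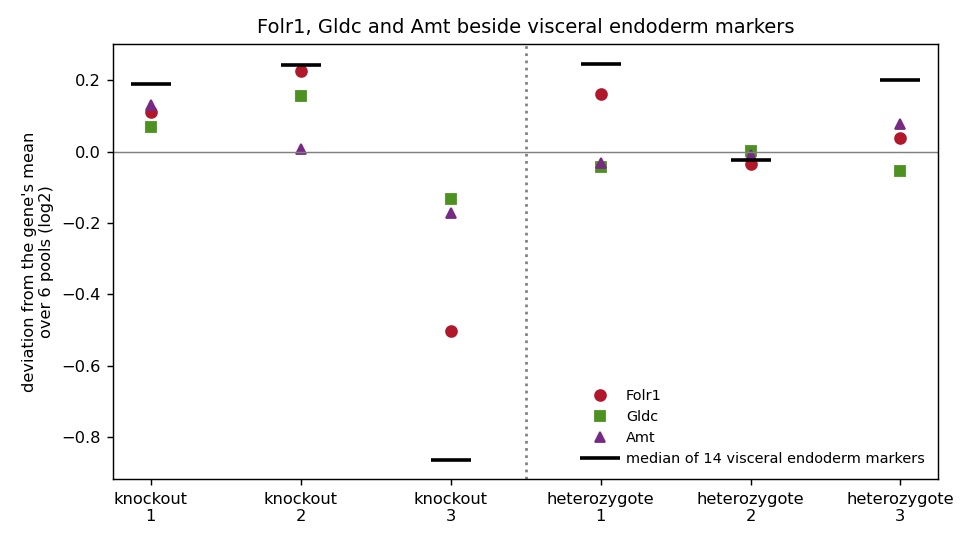
Deviation of Folr1, Gldc and Amt from their own mean over the 6 pools, in log2 units (vertical axis), for each knockout and heterozygote pool, with a black bar at the median deviation of 14 visceral endoderm markers. In knockout replicate 3 Folr1 lies at -0.50 and the markers at -0.86, while Gldc and Amt lie at -0.13 and -0.17.

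The carriers showed smaller differences. Slc19a1, the reduced folate carrier, had 8.25, 8.14 and 8.15 in knockout replicates 1, 2 and 3, against 8.24, 8.29 and 8.32 in heterozygote replicates 1, 2 and 3. The groups overlapped through knockout replicate 1, which lay just above heterozygote replicate 1. Between the genotypes the log2 fold change was -0.11 (95% confidence interval -0.24 to 0.02), at an adjusted p in limma of 0.539, and without knockout replicate 1 it was -0.14, with an unadjusted p of 0.045 and an adjusted p of 0.433. The dimmer probe set of Slc19a1 pointed the other way, with 7.41, 7.25 and 7.53 in knockout replicates 1, 2 and 3, against 7.40, 7.13 and 7.28 in heterozygote replicates 1, 2 and 3. Its log2 fold change was 0.13 (SE 0.09), and the mean of both probe sets gave 0.0099. The direction of Slc19a1 therefore rested on the choice of probe set.

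Slc46a1, the proton-coupled folate transporter, had 8.45, 8.22 and 8.27 in knockout replicates 1, 2 and 3, against 8.34, 8.29 and 8.41 in heterozygote replicates 1, 2 and 3. The knockout pools held both the highest and the lowest value. This amounts to a log2 fold change of -0.03 (95% confidence interval -0.20 to 0.14), and it was 0.01 after quantile normalization and after cyclic loess.

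The glycine cleavage system breaks glycine down in mitochondria and loads its carbon onto folate. Gldc, the glycine decarboxylase that starts the reaction, had 8.59, 8.68 and 8.39 in knockout replicates 1, 2 and 3, against 8.48, 8.52 and 8.47 in heterozygote replicates 1, 2 and 3. Knockout replicates 1 and 2 were above all heterozygote pools and knockout replicate 3 below all of them. Between the genotypes the log2 fold change was 0.06 (95% confidence interval -0.12 to 0.25), at an adjusted p in limma of 0.801. Without knockout replicate 3 it was 0.15, with an unadjusted p of 0.053 and an adjusted p of 0.593.

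Amt, the aminomethyltransferase that hands the carbon unit to tetrahydrofolate, had 8.33, 8.20 and 8.02 in knockout replicates 1, 2 and 3, against 8.16, 8.19 and 8.27 in heterozygote replicates 1, 2 and 3. The knockout pools again spanned the heterozygote range, with knockout replicate 3 lowest. Knockouts differed from heterozygotes by a log2 fold change of -0.02 (95% confidence interval -0.22 to 0.17), and 0.06 without knockout replicate 3. Of their partners in the complex, the carrier protein Gcsh had a log2 fold change of -0.09 (SE 0.08) and the dehydrogenase Dld of -0.03 (SE 0.06), the last of which was above 0 after quantile normalization and cyclic loess. Knockout replicate 3, where visceral endoderm markers were low, was the lowest pool of 5 of the 9 genes, Gldc, Amt, Folr1, Mthfd1 and Mthfd1l. Deviations were -0.08 for Mthfd1 and -0.04 for Mthfd1l. The share of all probe sets lowest in that pool was not counted, but the median deviation of the bright ones was also lowest there, at -0.03. So were those of endothelium and surface ectoderm markers, at -0.16 and -0.13, while that of primitive blood markers was 0.13. The part of any of these tissues in the values was not tested.

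Beyond the 9 genes, 73 of 78 listed genes of neighboring pathways were measured. None had an adjusted p under 0.05 in limma. Of the 73, 42 were bright and 8 were among the dimmest 7263 probe sets. With an unadjusted p under 0.05 there were 3 higher and 0 lower, or 4.11% and 0%. All probe sets gave 5.97% and 4.66%, and the bright ones 0.716% and 6.71%. By pools that did not overlap, 3 were higher and 8 lower, or 4.11% and 10.96%. Here all probe sets gave 8.03% and 9.03%, and the bright ones 3.06% and 16.8%. The log2 fold change was below 0 for 42 of the 73, or 57.5%, where all probe sets gave 50.3% and the bright ones 70.2%. The median of the 73 was -0.02. For 22 the sign differed between the deposited scale, median centring, quantile normalization and cyclic loess. The values ran from -0.13 for Ccne2 to 0.27 for Slc7a11.

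**Figure D5:**
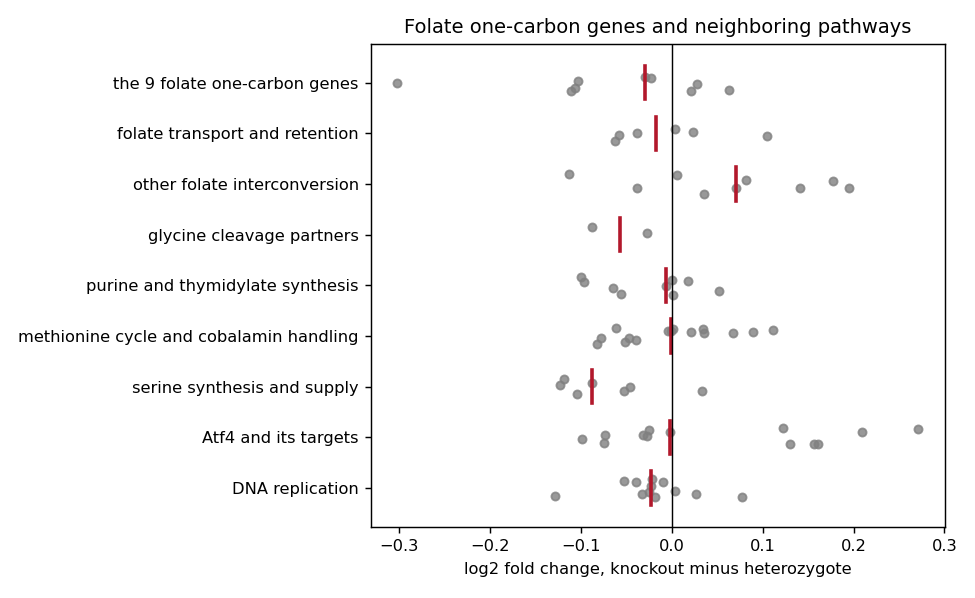
Log2 fold change, knockout minus heterozygote (horizontal axis), of each measured gene (gray points, 1 probe set per gene) among the 9 folate one-carbon genes and on 8 lists of neighboring pathways, and a red line marks each list's median. The points lie between -0.30 for Shmt2 and 0.27 for Slc7a11.

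Genes that make, move or convert serine, the substrate of Shmt2, were mostly below 0. Of 7 measured, 6 had a log2 fold change below 0, or 85.7%, where the bright probe sets gave 70.2%, and in 4 every knockout pool was below every heterozygote pool, which is 57.1%, where all probe sets gave 9.03% and the bright ones 16.8%. These 4, chosen after their values were seen except for Srr, were Psat1 and Psph of serine synthesis at -0.10 and -0.09, the neutral amino acid transporter Slc1a5 at -0.12 and Srr, the racemase that uses L-serine rather than supplying it, at -0.12. None of the 7 had an unadjusted p under 0.05, and Phgdh, the entry enzyme of serine synthesis, was at -0.05 (SE 0.09), while the highest was the mitochondrial serine transporter Sfxn1 at 0.03 (SE 0.05). The median of the 7 was -0.09, and it was -0.04 after quantile normalization and -0.05 after cyclic loess. Psat1 had 10.19, 10.26 and 10.20 in knockout replicates 1, 2 and 3, against 10.28, 10.33 and 10.35 in heterozygote replicates 1, 2 and 3. The distance between its groups was 0.02, less than the spread within either genotype.

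Atf4 is a transcription factor known to raise genes of serine and mitochondrial folate metabolism under amino acid stress. Atf4 itself had a log2 fold change of -0.10 (SE 0.06). Of 13 genes on its list, 2 were higher and none lower with an unadjusted p under 0.05, as against 5.97% and 4.66% of all probe sets. By pools that did not overlap, 2 were higher and 2 lower, or 15.4% each, where all probe sets gave 8.03% and 9.03%. The list thus had no single direction. Slc7a11, the cystine transporter, had 4.57, 4.74 and 4.66 in knockout replicates 1, 2 and 3, against 4.48, 4.36 and 4.32 in heterozygote replicates 1, 2 and 3, and lies among the dimmest 7263 probe sets, of which 10.5% were higher at this threshold. Its log2 fold change was 0.27 (limma, adjusted p = 0.391). Ddit4, a stress-induced inhibitor of growth signaling, was at 0.21 (adjusted p = 0.456). The median of the list was -0.0018, and it was 0.04 after quantile normalization and 0.03 after cyclic loess.

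Of 9 measured genes of other folate interconversions, Sardh, the mitochondrial sarcosine dehydrogenase, was the 1 higher at an unadjusted p under 0.05. This is 11.1%, where all probe sets gave 5.97%. It had 5.82, 5.80 and 5.89 in knockout replicates 1, 2 and 3, against 5.63, 5.75 and 5.55 in heterozygote replicates 1, 2 and 3, a log2 fold change of 0.19 (limma, adjusted p = 0.413). The lowest of these genes was Mtfmt, which formylates the mitochondrial initiator transfer RNA, at -0.11. Of 6 genes that move or retain folate, none had an unadjusted p under 0.05, and they ran from -0.06 for the folate receptor Folr2 to 0.10 for Izumo1r, a relative of the folate receptors on the egg.

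Genes that use the carbon units lay near 0. Of 9 genes of purine and thymidylate synthesis, none had an unadjusted p under 0.05, and they ran from -0.10 for the thymidylate kinase Dtymk to 0.05 for the thymidine kinase Tk1. Tyms, the thymidylate synthase, was the only one of the 9 whose pools did not overlap, at -0.10 (SE 0.05), and was chosen after its values were seen. This 1 of 9 is 11.1%, where all probe sets gave 9.03% and the bright ones 16.8%. Of 15 genes of the methionine cycle and of cobalamin handling, none had an unadjusted p under 0.05, with values from -0.08 for the cobalamin enzyme Mmachc to 0.11 for Cth, which makes cysteine from cystathionine. Of 12 genes of DNA replication, which mark dividing cells, none had an unadjusted p under 0.05, from -0.13 for the cyclin Ccne2 to 0.08 for Pcna, and their median was -0.02, against 0.01 after quantile normalization.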

How the data were processed

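Arrays of 3 knockout and 3 heterozygote pools of E8.5 heads were used. Intensity values had been summarized by the authors with RMA (Affymetrix Power Tools, version not given in the sources used here) and deposited on a linear scale (2.53 to 11741, with array medians between 58.1 and 62.9), so log2 was taken first. Of 35556 rows, the 21789 that the platform annotation pairs with 1 symbol were tested, and symbols were updated by gene number for 21698. Knockout and heterozygote pools were compared with limma 3.58.1 in R 4.3.3 with no covariate, and p-values were adjusted over all tested probe sets by the Benjamini-Hochberg method. The fit was tested on simulated data. With 6 arrays precision is limited by their number, and a p-value reflects only how far these pools, called biological replicates in the study, spread.

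The members and lists were chosen with earlier results of these data known. Named genes were Jarid1b, the members, for each pathway list the genes at an unadjusted p under 0.05 plus the highest and lowest, the highest and lowest of a marker list set beside a member, and the 3 probe sets most like the most variable member. As alternatives, dim probe sets were left out, all rows tested or a gene's probe sets averaged. Scaling, variance model and array weights were changed, a replicate block was added, and each pool was left out in turn. Some of the listed genes were not analysed here. Sequences come from a RefSeq table of GRCm38.p6. No build is given for the arrays in the sources used.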

Additional observations from a re-analysis of the deposited data

How the results depend on the processing

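Over the 15 alternatives, Shmt2 and Mthfd1 kept a negative log2 fold change, and no folate gene passed at an adjusted p under 0.05. For Shmt2 and Mthfd1, leaving out a pool could not turn the sign, because their groups did not overlap. Values near 0 changed sign: Amt was 0.0243 after quantile normalization and 0.0177 after cyclic loess, and Slc46a1 was 0.0132 and 0.0124 in the same order. Slc19a1 was 0.00993 with its probe sets averaged. With 1 pool left out, Amt ran from -0.0943 without knockout replicate 1 to 0.0567 without knockout replicate 3, Folr1 from -0.252 without knockout replicate 2 to 0.11 without knockout replicate 3, Gldc from -8.57e-05 without knockout replicate 2 to 0.145 without knockout replicate 3, and Mthfd1l from -0.0144 without knockout replicate 2 to 0.0482 without knockout replicate 3. Mthfd2 ran from -0.0247 without heterozygote replicate 3 to 0.0552 without heterozygote replicate 2, and Slc46a1 from -0.098 without knockout replicate 1 to 0.0167 without knockout replicate 2. The median of the 9 genes ran from -0.098 without knockout replicate 1 to 0.0399 without knockout replicate 3. The count of members lower at an unadjusted p under 0.05 was 2 with trend and robust, where Mthfd1 joined Shmt2, and 1 to 2 with a pool left out, where Slc19a1 joined it without knockout replicate 1. With trend and robust 5 genes of the pathway lists were higher and 4 lower, against 3 and 0, and 1 was lower after cyclic loess. Leaving out a pool gave 1 or 2 calls over all probe sets, the second being Uty without heterozygote replicate 2. Over all probe sets at an unadjusted p under 0.05, 650 were higher without the dimmest 7263 probe sets, against 1301, and 664 and 619 were lower without heterozygote replicates 2 and 3, against 1016. The causes were not tested. Whether replicate numbers pair the pools is not stated in the sources used. Deviations of same-numbered pools correlated at 0.00076, 0.11 and -0.01 over probe sets for replicates 1, 2 and 3. The value of replicate 2 was the highest of any knockout and heterozygote pool. With so few pools these correlations cannot exclude a pairing. With the replicate block, 1 probe set was called, as without it, and Shmt2 had an adjusted p of 0.469. With 3 pools each, the 95% confidence intervals of the 9 genes reached from 0.13 to 0.41 on the log2 scale to either side of the estimate, so differences within those widths could not be told from 0.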
